A study of Caenorhabditis elegans with 24 samples.

Results

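The nuclear hormone receptor genes of Caenorhabditis elegans that carry an nhr name were followed through microarray profiles of embryonic neurons, larval neurons and larval A-class motor neurons. They were found by the gene symbol of each probe set, which is the group of short probes that measures a transcript on the Affymetrix array. All probe sets whose single gene symbol begins with nhr- were taken, which gave 293 probe sets for 254 genes among 22548 probe sets tested, 20766 of which had a single gene symbol. A further 14 probe sets list an nhr gene together with another gene record and were set aside, nhr-62 among them.

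Nuclear hormone receptors are transcription factors that bind DNA through a pair of zinc fingers and that can bind small lipophilic molecules through a separate domain. The nematode family is unusually large, and most of its members are thought to descend from duplications of a gene related to the vertebrate receptor HNF4. A small group has clear counterparts in insects and vertebrates, and some of these act in molting, in the epidermis and in the fate of single neurons. Other members control fat metabolism, detoxification and the use of propionate, and for most of the remaining genes little is known.

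Embryonic neurons were sorted for the GFP made by the pan-neural transgene F25B3.3::GFP (strain NW1229) after dissociated embryonic cells had been cultured (3 arrays). The embryonic reference (4 arrays) was the total population of living cells from embryonic cultures of an earlier study. Larval neuronal RNA came from L2 larvae in which the integrated transgene F25B3.3::FLAG::PAB-1 (strain SD1241) placed a tagged poly-A binding protein in all neurons, and was pulled down with an antibody against the tag (3 arrays). The A-class RNA was obtained in the same way from unc-4::3XFLAG::PAB-1 (strain NC694), an extrachromosomal transgene under the promoter of the A-class homeodomain gene unc-4 (4 arrays). The larval reference was RNA that stuck nonspecifically in mock pull-downs from wild-type N2 larvae (5 arrays), and each transgene was studied in 1 line. Normalization was done in 3 separate sets, embryonic, larval pan-neural and A-class, and the same 5 reference hybridizations stand in both larval sets. The 24 columns of values therefore hold 19 independent hybridizations, and levels of receptors are compared within a set only. The labels give no mutation besides the transgenes. In such bulk samples fewer cells of a type and less RNA per cell cannot be told apart.

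Replicate arrays of a group gave squared correlations between 0.918 and 0.991. Of 12 general neuronal markers, 10 were called higher in larval neurons, 3 in A-class neurons and 1 in embryonic neurons, where the median difference was 0.79 on the log2 scale. The neuronal marker rgef-1, the gene F25B3.3 itself, lay under log2 5 in all 6 groups. No embryonic hybridization day or chip lot held both groups. Only 1 larval day did, with 2 larval pan-neural arrays and 2 references, and the A-class arrays shared a chip lot but no day with their references. A-class replicate 1 had another wash protocol than the other A-class arrays.

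Much of the family gave signal near the bottom of the array. Under log2 5, a level taken here as the floor, lay 46.4% of nhr probe sets in embryonic neurons, 34.1% in larval neurons and 41.6% in the A-class sample. The corresponding shares of all probe sets were 35.7%, 27.4% and 31.8%. For the same larval reference hybridizations the nhr share under the floor was 35.5% in the pan-neural set and 42.7% in the A-class set. Shares and counts by level are therefore read within a set only. At or above log2 8 lay 24 nhr probe sets (8.19%) in embryonic neurons, 12 (4.10%) in larval neurons and 11 (3.75%) in the A-class sample, against 14.8%, 15.8% and 14.9% of all probe sets. Both the neuronal sample and its reference were under the floor for 128 members in the embryonic set, 95 in the larval pan-neural set and 120 in the A-class set, and for these members a difference could hardly be measured. Probe sets above log2 8 in all 3 neuronal samples belonged to nhr-3, nhr-34, nhr-40, nhr-46, nhr-49, nhr-88 and nhr-228. The median SD between arrays of a group ran from 0.125 to 0.196 over the nhr probe sets and from 0.131 to 0.209 over all probe sets.

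Each neuronal sample was compared with its own reference by limma, a linear model with moderated variance. Probe sets that differed 1.5-fold or more with an adjusted p below 0.01 were called, and are named enriched or depleted in what follows. In embryonic neurons 4 nhr probe sets (1.37%) were enriched, against 1.96% of all probe sets, and 4 (1.37%) were depleted, against 2.78%. In larval neurons 12 (4.10%) were enriched, against 6.08% of all probe sets. None was depleted there, against 3.34%, although 23 (7.85%, against 15.3% of all) had a lower value with an unadjusted p below 0.05. In the A-class sample none was enriched, against 0.776%, with 7 (2.39%, against 7.54%) higher where the unadjusted p alone was below 0.05, and 1 was depleted (0.341%), against 0.115%. These calls fell on 21 genes, and no gene was called in more than 1 of the 3 comparisons.

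**Figure D1:**
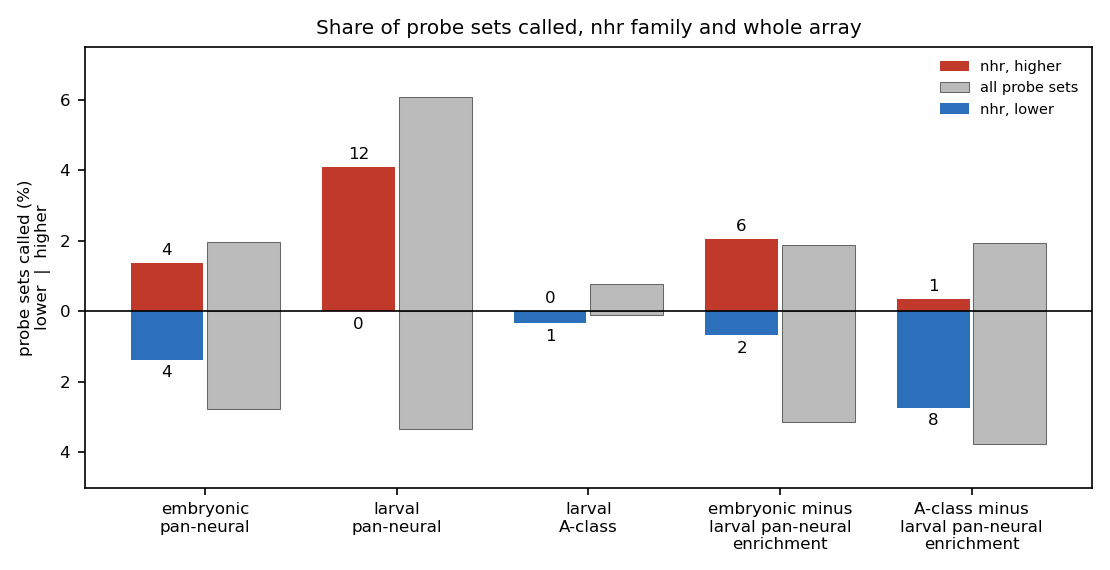
Share of probe sets called (y axis, percent) above the zero line where higher and below it where lower, for the 293 nhr probe sets (coloured, with their number) and all 22548 probe sets (grey), in 3 comparisons with a reference and 2 comparisons of enrichments. The nhr share of enriched probe sets was below that of the array in all 3 comparisons with a reference, with 12 nhr probe sets (4.10% against 6.08%) in larval neurons.

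Groups whose arrays did not overlap at all were counted as well. In the embryonic set 52 nhr probe sets (17.7%, against 15.3% of all) lay higher on every neuronal array than on any reference array, and 27 (9.22%, against 13.4%) lay lower. In the larval pan-neural set these were 36 (12.3%, against 12.5%) and 19 (6.48%, against 11.5%). The A-class set gave 6 (2.05%, against 3.92%) and 10 (3.41%, against 2.81%). The median difference of the nhr probe sets was 0.10 in embryonic neurons, 0.02 in larval neurons and -0.02 in the A-class sample, beside 0.04, 0.00 and -0.01 for all probe sets.

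The 4 enriched members of embryonic neurons all lie on chromosome V (assembly WBcel235): nhr-116 (F09C6.9), nhr-115 (T27B7.4), nhr-182 (F41B5.9) and nhr-124 (C17E7.8). The depleted members were nhr-43 (C29E6.5) and nhr-11 (ZC410.1) of chromosome IV, nhr-25 (F11C1.6) of chromosome X and nhr-23 (C01H6.5) of chromosome I. nhr-25 is the nematode counterpart of Ftz-F1 and SF-1 and is needed for the epidermis and for molting. nhr-23 is related to the insect receptor DHR3 and to the vertebrate ROR receptors and drives the molting cycle.

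The log2 intensities of nhr-116 were 7.08, 6.36, 6.76 and 6.66 on the reference arrays and 8.30, 8.09 and 8.87 on the neuronal arrays. All neuronal arrays lay above all reference arrays. The difference was 1.71 (3.26-fold, SE 0.229, adjusted p = 0.0042 by limma). For nhr-115 the reference arrays read 4.32, 4.29, 4.15 and 4.36 and the neuronal arrays 5.72, 5.93 and 5.81. The reference was thus under the floor in every array, while the neurons were above it, and the fitted difference of 1.54 (2.91-fold, SE 0.105, adjusted p = 0.000679) starts from a level that the array hardly resolves. nhr-182 read 7.42, 6.93, 6.81 and 7.08 in the reference and 8.17, 8.51 and 8.51 in the neurons. Its groups were well separate, and it was 2.53-fold higher (1.34, SE 0.17, adjusted p = 0.00353). nhr-124 read 5.74, 5.53, 5.29 and 5.53 against 6.75, 6.69 and 6.74. The neuronal arrays hardly differed among themselves, and the difference was 1.20 (2.30-fold, SE 0.125, adjusted p = 0.00209).

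Of all members, nhr-43 had the largest absolute difference in embryonic neurons. Its reference arrays read 8.24, 8.20, 7.53 and 8.05, and its neuronal arrays 4.50, 4.44 and 4.48. The transcript was well measured in the culture as a whole and under the floor in all 3 neuronal arrays. The difference was -3.53 (11.6-fold lower, SE 0.18, adjusted p = 0.000322), and since the lower group is at the floor its size is rough. In both larval sets nhr-43 read between 5.39 and 6.24 on every array, with differences of -0.30 (adjusted p = 0.102) in larval neurons and -0.28 (adjusted p = 0.307) in the A-class sample.

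nhr-11 read 7.86, 7.20, 7.20 and 7.77 in the embryonic reference and 5.76, 6.32 and 6.27 in the neurons. The groups did not overlap, and the difference was -1.39 (SE 0.224, adjusted p = 0.00774). The other probe set of nhr-11 gave -0.94 (adjusted p = 0.0412), in the same direction without passing. That uncalled probe set had the higher mean over the embryonic arrays, so the call of nhr-11 rests on its dimmer probe set. nhr-25 read 8.79, 9.30, 8.47 and 9.03 against 7.42, 7.83 and 7.33, a difference of -1.37 (SE 0.216, adjusted p = 0.00723). nhr-23 read 7.57, 7.49, 7.44 and 7.87 against 6.76, 6.78 and 6.71, a difference of -0.84 (SE 0.127, adjusted p = 0.00619). For both genes the second probe set did not show this, with -0.22 for nhr-25 (adjusted p = 0.26) and 0.10 for nhr-23 (adjusted p = 0.553), so the depletion of these receptors rests on 1 of 2 probe sets each.

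Markers of the epidermis and of body wall muscle moved with these values. The summed linear intensity of 8 epidermal markers ran from 671 to 1920 in embryonic neurons and from 3730 to 7070 in the reference. None of the 8 was called, none was at 0, bli-1 and dpy-5 were under the floor in both groups and rol-6 in the neurons. For 10 body wall muscle markers the sums were 1170 to 1470 and 2800 to 4500, with 4 of 10 depleted, none at 0 and tnt-3 under the floor in the neurons. Their part in the results on nhr-43, nhr-11, nhr-25 and nhr-23 was not tested.

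**Figure D2:**
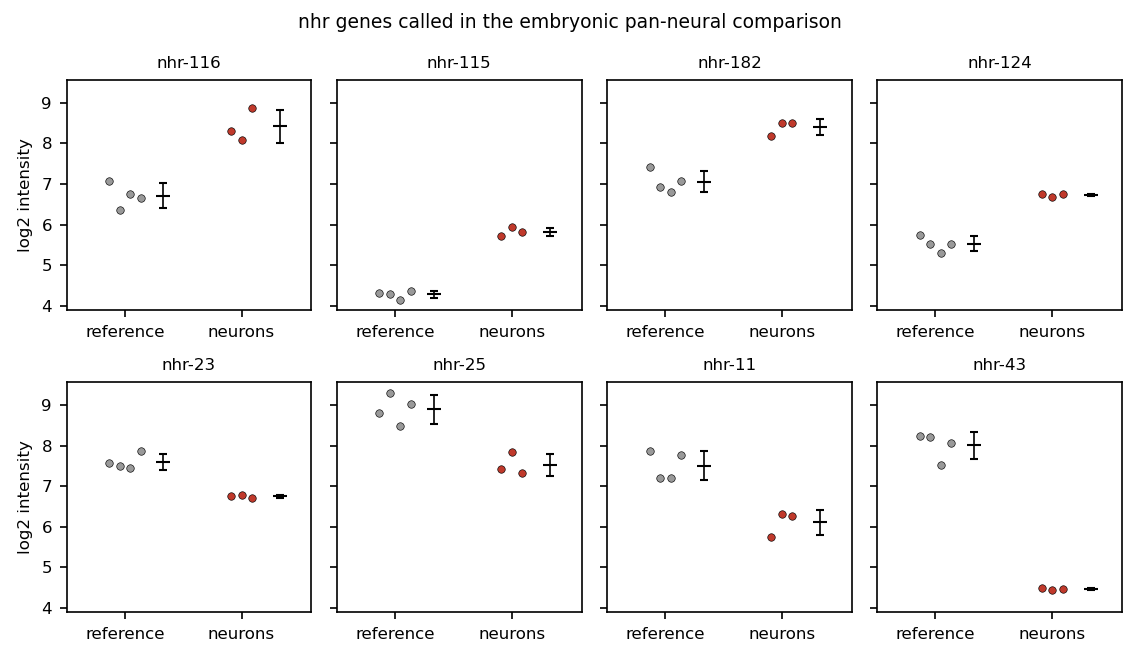
Log2 intensity (y axis) of the 8 nhr genes called in embryonic neurons, with a point for each array (4 references in grey, 3 neuronal arrays in red) and the mean with its SD as a bar. In every panel the groups are separate. nhr-115 starts at 4.28 in the reference and nhr-43 falls to 4.47 in the neurons, both under the floor of 5.

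With the hybridization day as a random block, 2 of the embryonic calls were kept as higher (nhr-115 and nhr-124) and 1 as lower (nhr-43). No embryonic day held both groups, so this fit allows for likeness between arrays of a day but cannot part day from group. Without single arrays the number enriched ran from 1 (without embryonic pan-neural replicate 1 or reference replicate 2) to 8 (without reference replicate 1). nhr-115 and nhr-43 stayed called whichever array was left out, while nhr-11 and nhr-23 lost their calls whichever of the 7 arrays was left out, where the adjusted p of nhr-11 ran from 0.0119 to 0.0318 and that of nhr-23 from 0.0108 to 0.0286. nhr-116 and nhr-182 kept the call only without reference replicate 1 (adjusted p otherwise up to 0.0195 and 0.017), and nhr-25 only without reference replicate 3 (otherwise up to 0.0342). nhr-124 lost it without reference replicate 2 or pan-neural replicate 1 (up to 0.0133). The size of the differences moved little, with nhr-116 between 1.48 and 1.87 and nhr-25 between -1.52 and -1.24.

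Other members stood just outside the threshold in embryonic neurons. nhr-47 was higher by 1.03 (SE 0.181, adjusted p = 0.0108), the pseudogene nhr-215 by 1.57 (SE 0.282, adjusted p = 0.0113) and nhr-51 by 1.32 (SE 0.27, adjusted p = 0.0181). nhr-31, which shapes the tubule of the excretory cell, was at -0.91 (SE 0.175, adjusted p = 0.0141).

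In larval neurons the enriched members were nhr-167 (C49F5.4) and nhr-40 (T03G6.2) of chromosome X, nhr-21 (F21D12.1) of chromosome II, nhr-236 (Y38F2AL.5) and nhr-277 (Y94H6A.1) of chromosome IV, and 7 genes of chromosome V. The latter were nhr-51, nhr-52 and nhr-198 (K06B4.1, K06B4.2 and K06B4.8), nhr-186 and nhr-188 (F47C10.3 and F47C10.7), nhr-47 (C24G6.4) and nhr-95 (Y39B6A.17). nhr-40 is known for a role in muscle development and movement. The enrichment ran from 0.63 to 1.47 on the log2 scale over the 12, which is less than the extremes of the embryonic set.

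nhr-167 read 5.19, 4.59, 4.64, 4.87 and 5.11 on the larval references and 6.17, 5.92 and 6.96 on the pan-neural arrays. The reference scattered around the floor while every neuronal array was above it, and the difference was 1.47 (2.77-fold, SE 0.237, adjusted p = 0.0025 by limma). On the A-class arrays it read 4.84, 4.63, 4.84 and 4.94, within the range of the references of that set. nhr-21 read 5.65, 5.77, 6.12, 5.83 and 6.24 in the references and 6.61, 7.20 and 7.27 in larval neurons, a difference of 1.10 (SE 0.186, adjusted p = 0.00324). Its A-class arrays, at 5.32, 5.38, 5.40 and 5.24, again lay within the range of their references (5.17 to 5.79).

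nhr-51 read 6.11, 6.41, 6.05, 6.41 and 6.28 in the references and 7.27, 7.06 and 7.61 in larval neurons, a difference of 1.06 (SE 0.144, adjusted p = 0.000988). Its neighbour nhr-52 read 4.70, 4.50, 4.84, 4.58 and 4.58 against 5.98, 5.12 and 5.93. All 5 references of nhr-52 were under the floor, and the difference was 1.04 (SE 0.189, adjusted p = 0.00487). nhr-198, from the same neighbourhood, read 4.73, 4.50, 4.60, 4.64 and 4.60 against 5.74, 5.32 and 5.71. Its references were likewise all under the floor and its neurons above it, with a difference of 0.97 (SE 0.116, adjusted p = 0.000488). These genes are paralogs that lie side by side, and whether their probes also bind each other's transcripts was not tested.

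nhr-40 was well above the floor on all arrays, with 8.99, 8.54, 8.75, 8.38 and 8.92 in the references and 9.32, 9.54 and 9.70 in larval neurons. The difference was 0.81 (SE 0.157, adjusted p = 0.00678), and the other probe set of nhr-40 gave 0.19 (adjusted p = 0.489). nhr-47 read 6.92, 6.98, 6.67, 7.16 and 7.09 against 7.71, 7.84 and 7.88, a difference of 0.85 (SE 0.12, adjusted p = 0.00128). Its second probe set stood at -0.01 (adjusted p = 0.952), so for these 2 genes the probe sets did not give the same result. nhr-95 read 6.74, 6.65, 6.57, 6.60 and 6.81 against 7.52, 7.26 and 7.49, a difference of 0.75 (SE 0.101, adjusted p = 0.000945). Of the 12, nhr-188 and nhr-95 had the highest values in the A-class sample, at 0.53 (adjusted p = 0.0224) and 0.50 (adjusted p = 0.0752), neither of them called.

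The remaining 4 were enriched 1.55-fold to 1.60-fold with small scatter. nhr-236 was higher by 0.68 (SE 0.103, adjusted p = 0.00178), nhr-188 by 0.68 (SE 0.0884, adjusted p = 0.000806), nhr-186 by 0.67 (SE 0.084, adjusted p = 0.000658) and nhr-277 by 0.63 (SE 0.0996, adjusted p = 0.00229). The arrays of the groups were separate for all 12 genes. A further 5 probe sets passed the adjusted p but not the fold change, those of nhr-67, nhr-124, nhr-158, nhr-189 and nhr-190, with 1.38-fold to 1.48-fold. That of nhr-189 had means under the floor in both groups, so its difference was hardly measurable.

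**Figure D3:**
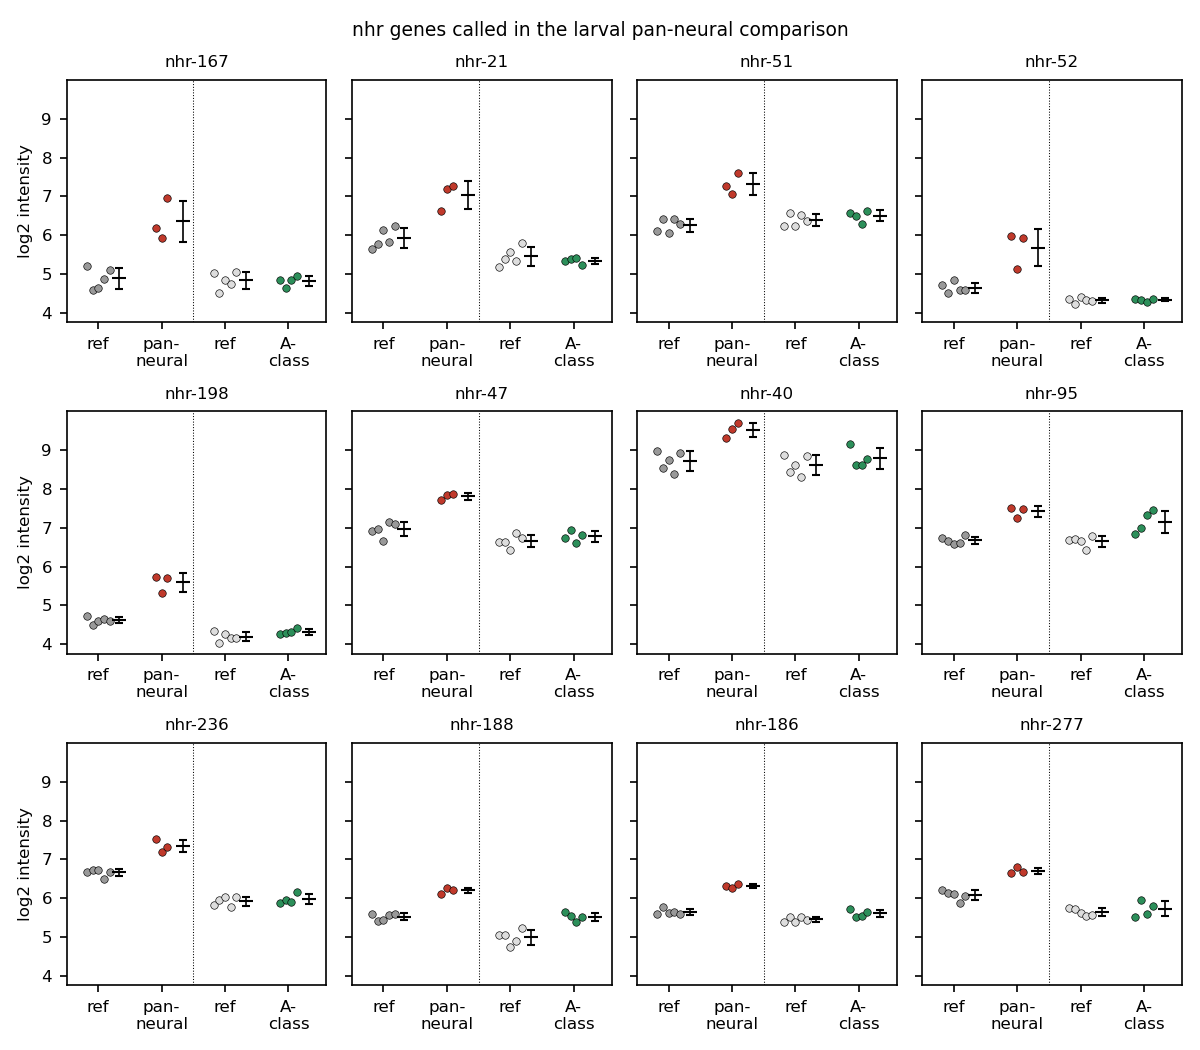
Log2 intensity (y axis) of the 12 nhr genes enriched in larval neurons, with a point for each array and the mean with its SD as a bar. The dotted line parts the pan-neural set (5 references in dark grey, 3 neuronal arrays in red) from the A-class set (the same 5 references, normalized again, in light grey, and 4 A-class arrays in green). The red points lie above all dark grey points in every panel, while most green points lie among the light grey ones.

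Day of hybridization was taken into account in 2 further fits of the larval neurons, both on arrays that had also chosen the 12 genes. From the 2 neuronal and 2 reference arrays of the only shared day the 12 differences ran from 0.66 to 1.45. No nhr probe set was called in this smaller fit, nor was any of all 22548 probe sets, and the adjusted p of the 12 ran from 0.0349 to 0.13. With day as a fixed block over all 8 arrays the 12 differences were the same by construction, since only this day held both groups. The arrays of other days entered the estimate of variance alone, and the adjusted p of the 12 ran from 0.0137 to 0.0825. No nhr probe set was called in that fit, while 425 of all 22548 probe sets were. Without pan-neural replicate 3 the number enriched was 7. nhr-40 lost its call without pan-neural replicate 1, 2 or 3 or reference replicate 2, 3 or 4 (adjusted p up to 0.0393), and nhr-52 without pan-neural replicate 1 or 3 or reference replicate 1, 2, 4 or 5 (up to 0.0295). nhr-21 lost it without pan-neural replicate 2 or 3 or reference replicate 2 (up to 0.021), and nhr-236 without pan-neural replicate 3 (0.01). nhr-167, nhr-51, nhr-198, nhr-47, nhr-95 and nhr-188 stayed called in all 8 of these fits. Without pan-neural replicate 2, 4 nhr probe sets were depleted, a direction in which the full set gave none.

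Markers of neurons moved with these members. Their summed linear intensity over 12 genes was 17900 to 23900 in larval neurons and 5660 to 8390 in the references of that set, with none at 0 and rgef-1 under the floor throughout. Of 10 intestinal markers 4 were depleted in larval neurons, with sums of 10500 to 13300 against 17400 to 23700, none at 0 and none under the floor. Of 8 epidermal markers 3 were depleted, with sums of 8960 to 13500 against 16500 to 26400, again none at 0 or under the floor. Of 6 germline markers 2 were depleted, with sums of 499 to 704 against 913 to 1400, none at 0 and him-3 under the floor in the neurons. The 2 coelomocyte markers also had higher values in larval neurons, at 0.788 and 0.878, though neither was called. Their sums were 282 to 481 against 187 to 287. The part of all these markers in the results on the receptors was not tested.

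In the A-class sample the only called member was nhr-65 (Y17D7A.3, chromosome V), which was depleted. It read 7.42, 7.65, 7.38, 7.32 and 7.25 on the references and 6.29, 6.48, 6.74 and 5.98 on the A-class arrays. The groups did not overlap, and the difference was -1.03 (2.05-fold lower, SE 0.144, adjusted p = 0.00535). Its second probe set gave -0.34 (adjusted p = 0.288), and the call was lost in 6 of the 9 fits without 1 array: without A-class replicate 1 or 2 or reference replicate 1, 2, 3 or 4 (adjusted p up to 0.0174). In larval neurons the same probe set stood at -0.70 (SE 0.199, adjusted p = 0.0364). Both larval comparisons use the same reference hybridizations.

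The member with the highest difference in the A-class sample was nhr-199 (K06B4.10), which missed the threshold. It read 5.12, 5.24, 5.04, 4.55 and 5.02 in the references and 5.73, 5.88, 5.66 and 6.13 in the A-class arrays, all above the references. The difference was 0.85 (SE 0.145, adjusted p = 0.0142). In larval neurons it was 0.12 (SE 0.109, adjusted p = 0.578). nhr-68, an activator of propionate breakdown genes, stood at -0.91 in the A-class sample (SE 0.214, adjusted p = 0.0522).

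Whether enrichment differed between stages was tested by a contrast of the embryonic and larval pan-neural differences over 15 arrays. It compares neurons sorted from culture with neurons tagged in the animal, so stage and method cannot be told apart. The embryonic difference was higher for 6 nhr probe sets (2.05%, against 1.88% of all) and lower for 2 (0.683%, against 3.13%). nhr-115 stood at 1.54 in embryonic and -0.30 in larval neurons, a contrast of 1.84 (SE 0.19, adjusted p = 5.41e-05). nhr-116 stood at 1.71 and 0.09, a contrast of 1.62 (SE 0.258, adjusted p = 0.00111), and nhr-182 at 1.34 and 0.13, a contrast of 1.21 (SE 0.191, adjusted p = 0.00105). nhr-124 was positive at both stages, at 1.20 and 0.46, and its contrast was 0.74 (SE 0.152, adjusted p = 0.00566).

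The other 2 of these 6 were called at neither stage as enriched. The pseudogene nhr-215 (T07C5.4, chromosome X) read 5.44, 5.45, 5.20 and 5.12 in the embryonic reference and 7.05, 6.15 and 7.43 in embryonic neurons, whereas all 8 arrays of the larval pan-neural set were under the floor, between 4.20 and 4.66. Its contrast passed the test at 1.51 (SE 0.306, adjusted p = 0.00535), but a larval enrichment could not be measured at that level, so this value gives the embryonic difference and not a comparison of stages. nhr-65 stood at 0.59 in embryonic and -0.70 in larval neurons, a contrast of 1.29 (SE 0.279, adjusted p = 0.00779), while its other probe set gave -0.02 (adjusted p = 0.969). The contrast was negative for nhr-43, at -3.23 (SE 0.214, adjusted p = 1.86e-06), and for nhr-11, at -1.59 (SE 0.264, adjusted p = 0.00151), neither of which was depleted in larval neurons. For nhr-25 and nhr-23 no difference between stages was called, with contrasts of -0.72 (SE 0.349, adjusted p = 0.201) and -0.03 (SE 0.269, adjusted p = 0.965). nhr-115, nhr-116, nhr-182, nhr-43 and nhr-11 kept this call whichever array was left out, whereas nhr-124 lost it in 9, nhr-215 in 8 and nhr-65 in 12 of the 15 fits (adjusted p up to 0.0162, 0.0191 and 0.0226). With day as a random block the calls of nhr-124 (adjusted p = 0.0148) and nhr-65 (adjusted p = 0.0191) were lost too, which left 4 higher and 2 lower. For the embryonic arrays that fit cannot part day from group. In the same contrast 3 of 10 intestinal markers were higher and 4 of 5 cholinergic markers lower, and their part in it was not tested.

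**Figure D4:**
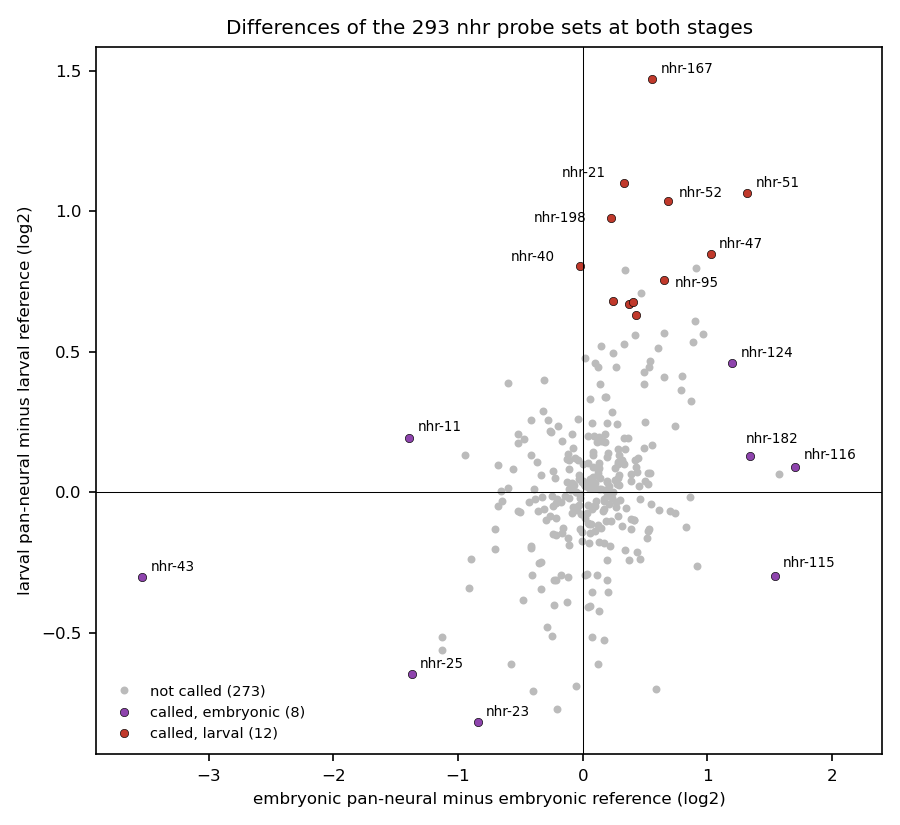
Difference from the reference (log2) of each of the 293 nhr probe sets in embryonic neurons (x axis) and larval neurons (y axis), with the 8 called in embryonic neurons in purple and the 12 called in larval neurons in red. The larval calls have embryonic values between -0.02 and 1.32, while nhr-116, nhr-182 and nhr-115 lie between -0.30 and 0.13 on the larval axis and nhr-43 stands alone at the left.

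Over the 293 probe sets the embryonic and larval differences gave a Pearson correlation of 0.375 and a Spearman correlation of 0.34, and over all 22548 probe sets 0.41 and 0.323. This is a description across probe sets, which are not independent and share the arrays.

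To set A-class motor neurons against all larval neurons, the mean of the references of each set was subtracted first. The A-class value was higher for 1 nhr probe set (0.341%, against 1.95% of all) and lower for 8 (2.73%, against 3.76%). nhr-199 was the higher one, by 0.74 (SE 0.124, adjusted p = 0.00613). The lower ones with the largest differences were nhr-167 at -1.49 (SE 0.224, adjusted p = 0.0038), nhr-21 at -1.21 (SE 0.158, adjusted p = 0.00193) and nhr-51 at -0.95 (SE 0.145, adjusted p = 0.00417). They were followed by nhr-198 at -0.85 (SE 0.121, adjusted p = 0.00297), nhr-88 at -0.74 (SE 0.121, adjusted p = 0.00565) and nhr-47 at -0.72 (SE 0.105, adjusted p = 0.00312). The last 2 were nhr-236 at -0.63 (adjusted p = 0.00855) and nhr-216 at -0.59 (adjusted p = 0.00648), the latter under the floor on all larval arrays, so that its difference was hardly measurable.

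Of these 8 genes, 6 were enriched in larval neurons, and for those the A-class value itself lay close to the reference, between -0.11 and 0.13. nhr-88 (K08A2.5, chromosome II) was called in no comparison with a reference, at 0.57 (adjusted p = 0.155) in larval neurons and -0.17 (adjusted p = 0.797) in the A-class sample, and its other 3 probe sets gave -0.23 to 0.05 in the comparison of both. With day as a random block 1 of the 8 was kept, nhr-21 (-1.21), and nhr-199 was not. No day held both A-class and pan-neural arrays, so that fit cannot part day from sample. Without A-class replicate 3 or pan-neural replicate 3 the number lower was 1, and without A-class replicate 2 or 4 it was 2. The call of nhr-21 was lost without pan-neural replicate 3 (adjusted p = 0.0109), and those of the other 5 with the largest differences in 3 to 5 of the 12 fits (up to 0.0293). nhr-199 lost its call without pan-neural replicate 1, 2 or 3 or A-class replicate 2, 3 or 4 (up to 0.0241). Part of the neuronal markers moved the same way, with 5 of 12 general markers and 4 of 4 GABA neuron markers lower for A-class. So did 1 of 2 coelomocyte markers. Of 5 cholinergic and A-class markers 1 was lower and 1 was higher, with values from -1.85 to 1.69. Intestinal markers (3 of 10 higher) and epidermal markers (6 of 8 higher) moved the other way. The epidermal sums were 24500 to 33400 on the A-class arrays against 15500 to 24800 in the references of that set, and 8960 to 13500 in larval neurons against 16500 to 26400 in theirs. None of these markers was at 0, and their part in the comparison was not tested.

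Among 9 receptors with a counterpart in insects or vertebrates, none was enriched in any sample, against 1.96%, 6.08% and 0.776% of all probe sets. In embryonic neurons 2 of the 9 were depleted, against 2.78% of all probe sets. These were nhr-25 and nhr-23, each by 1 of its 2 probe sets only. The median difference of the 9 receptors was -0.43 in embryonic neurons, -0.03 in larval neurons and -0.01 in the A-class sample, beside 0.04, 0.00 and -0.01 for all probe sets. nhr-67, the counterpart of tailless, which acts in neurons and in the anchor cell, was the only one of the 9 with positive values over 0.5 at both stages. It read 9.50, 9.42, 9.22 and 9.44 in the embryonic reference and 10.20, 9.82 and 9.98 in embryonic neurons, a difference of 0.60 (SE 0.127, adjusted p = 0.0199). In the larval set it read 6.62, 6.82, 6.74, 6.75 and 6.83 against 7.32, 7.15 and 7.32. The groups were separate in both sets, and the larval difference of 0.51 (1.43-fold, SE 0.0905) had an adjusted p of 0.0041 without reaching 1.5-fold. On the A-class arrays nhr-67 stood at 0.09 (SE 0.0783, adjusted p = 0.668).

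nhr-91, related to the germ cell nuclear factor, stood at -0.70 in embryonic neurons (SE 0.145, adjusted p = 0.0186) and at -0.20 in larval neurons (adjusted p = 0.509). nhr-8, which takes part in the response to foreign compounds, stood at -0.58 (adjusted p = 0.143) and -0.61 (adjusted p = 0.0178). Its embryonic references read 4.59 to 4.71, under the floor, apart from replicate 4 at 5.48. nhr-6, the NR4A receptor needed for the spermatheca, stood at -0.28 (adjusted p = 0.471) and 0.26 (adjusted p = 0.67). Its other, dimmer probe set lay at -0.69, -0.56 and -0.72 from the reference mean on the embryonic neuronal arrays. On the larval pan-neural arrays that probe set lay at -0.19, 0.19 and 0.01. The values of nhr-41, nhr-48 and nhr-85 lay between -0.43 and 0.18 in both pan-neural samples. Over the A-class sample the 9 receptors ran from -0.14 to 0.13.

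Of 17 further receptors with a described role, 16 were measured by a probe set of their own. nhr-40 in larval neurons was the only call among them, 1 of 16 there, where 6.08% of all probe sets were enriched, and 0 of 16 in both other samples, with medians of -0.10, -0.14 and -0.14 in the embryonic, larval pan-neural and A-class comparisons. nhr-49, which controls the use of fatty acids, stood at 0.02 in embryonic neurons (SE 0.224, adjusted p = 0.969), at 0.48 in larval neurons (SE 0.131, adjusted p = 0.0314) and at 0.19 in the A-class sample (adjusted p = 0.46). Its other, dimmer probe set lay at -0.34, -0.02 and -1.21 from the reference mean on the embryonic neuronal arrays. On the larval pan-neural arrays that probe set lay at 0.14, 0.2 and 0.19. nhr-80, which works beside nhr-49 on fat desaturation, had values of -1.13 with a large error in embryonic neurons (SE 0.468, adjusted p = 0.15) and -0.56 in larval neurons (SE 0.156, adjusted p = 0.0331). Its embryonic spread did not allow a call. nhr-69 stood at -0.71 in larval neurons (SE 0.186, adjusted p = 0.0262) and -0.51 in the A-class sample (adjusted p = 0.141). The brightest probe sets of nhr-66, nhr-13 and nhr-10 lay between -0.52 and 0.07 in both pan-neural samples. nhr-2, a receptor of the early embryo, stood at -0.64 in embryonic neurons (SE 0.145, adjusted p = 0.0245) by the brightest of its 4 probe sets, and the other 3 gave -0.37, -0.07 and -0.03.

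The 5 nuclear receptors that carry other names gave 1 call in each pan-neural comparison. Over all probe sets 2.78% were depleted in embryonic neurons and 6.08% were enriched in larval neurons. sex-1, which reads the number of X chromosomes, was depleted in embryonic neurons, at -1.56 (SE 0.154, adjusted p = 0.00179). fax-1, which specifies interneurons and other neuron types, was enriched in larval neurons by 0.72 (SE 0.15, adjusted p = 0.00926) and stood at 0.40 in embryonic neurons (adjusted p = 0.0586). daf-12, the receptor of the dafachronic acid hormones, was at -0.95 in embryonic neurons with a large error (SE 0.399, adjusted p = 0.155). unc-55 and odr-7, which act in motor neurons and in the AWA olfactory neurons, were not called, at -0.04 and 0.19 in larval neurons.

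Genes that make hormones for these receptors or are known targets were counted in short lists, where 1 call is already a larger share than over the array. Of all probe sets, 2.78% were depleted in embryonic neurons and 3.34% in larval neurons. Of 8 genes for dafachronic acid synthesis, sterol handling and DAF-12 partners, 1 was depleted in embryonic neurons, dhs-16 at -1.53 (SE 0.243, adjusted p = 0.00751), and none was called in the larval samples. Of 7 measured targets of NHR-49 and NHR-80, 1 was depleted in larval neurons, the stearoyl-CoA desaturase gene fat-6 at -0.91 (SE 0.174, adjusted p = 0.00628), and icl-1 stood at -2.58 in embryonic neurons with a large error (SE 0.449, adjusted p = 0.0103). Of 4 propionate breakdown genes, 1 was depleted in embryonic neurons, alh-8 at -1.08 (SE 0.185, adjusted p = 0.00975). acdh-1 had errors over 0.9 in both larval samples. The coactivators mdt-15 and cbp-1 were not called, with values from -0.46 to -0.05.

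The position of the genes was looked up by name in RefSeq (assembly WBcel235), where all 254 were found. Chromosome V carries 164 of them (64.6%, against 25.3% of all genes), and 11 are annotated as pseudogenes. The median embryonic difference was 0.17 over the 174 nhr probe sets of chromosome V and -0.01 over those on other chromosomes. Over other genes it was 0.07 on chromosome V and 0.03 elsewhere. In larval neurons the medians were 0.01 and 0.03. The A-class medians were -0.03 and -0.01. The 4 embryonic enrichments were all on chromosome V and the 4 depletions all on other chromosomes, while the 12 larval enrichments divided into 7 and 5. These counts are small beside the 64.6% of nhr genes on chromosome V, and the split was not tested.

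Many of the genes lie side by side. Allowing up to 3 other protein-coding genes in between, 166 of 269 protein-coding nhr genes of the assembly fell into 45 runs of 2 or more, the longest with 12 genes, and 11 of the 21 called genes were in a run. Of these runs 3 held more than 1 called gene, all on chromosome V. In the run from nhr-182 to nhr-226 all 9 genes were measured and all 9 embryonic values were positive, with a median of 0.55. However, nhr-225, nhr-226 and nhr-227 were under the floor in both embryonic groups, so the sign of their values says little. nhr-182 and nhr-115 were enriched in embryonic neurons, nhr-59 stood at 0.83 (adjusted p = 0.0289), nhr-228 at 0.79 (adjusted p = 0.0927) and nhr-227 at 0.08 (adjusted p = 0.793). The value of nhr-59 starts from a reference mean of 4.98, and its other probe set lay only 0.15 to 0.41 above the reference mean on the neuronal arrays. In larval neurons the same genes had a median of -0.04, with 4 of 9 positive.

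In the run from nhr-185 to nhr-124 the medians were 0.37 in embryonic and 0.47 in larval neurons. These medians include nhr-185, nhr-189 and nhr-157, which were under the floor in neurons and reference at both stages. nhr-124, at its end, was called in embryonic neurons, and nhr-186 and nhr-188 in larval neurons. nhr-189 was at 0.56 in larval neurons (1.47-fold, adjusted p = 0.00217), but with means of 4.51 in the neurons and 3.95 in the reference it was under the floor in both. In the run from nhr-51 to nhr-53 the genes nhr-51, nhr-52 and nhr-198 were enriched in larval neurons. The genes between them, nhr-196, nhr-197 and nhr-268, had larval values of 0.28, 0.13 and 0.01, with nhr-197 under the floor in both groups. The next gene after nhr-198 is nhr-199, whose value was 0.12 in larval neurons and 0.85 in the A-class sample. A call in 1 gene of a run was thus not shared by all its neighbours.

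**Figure D5:**
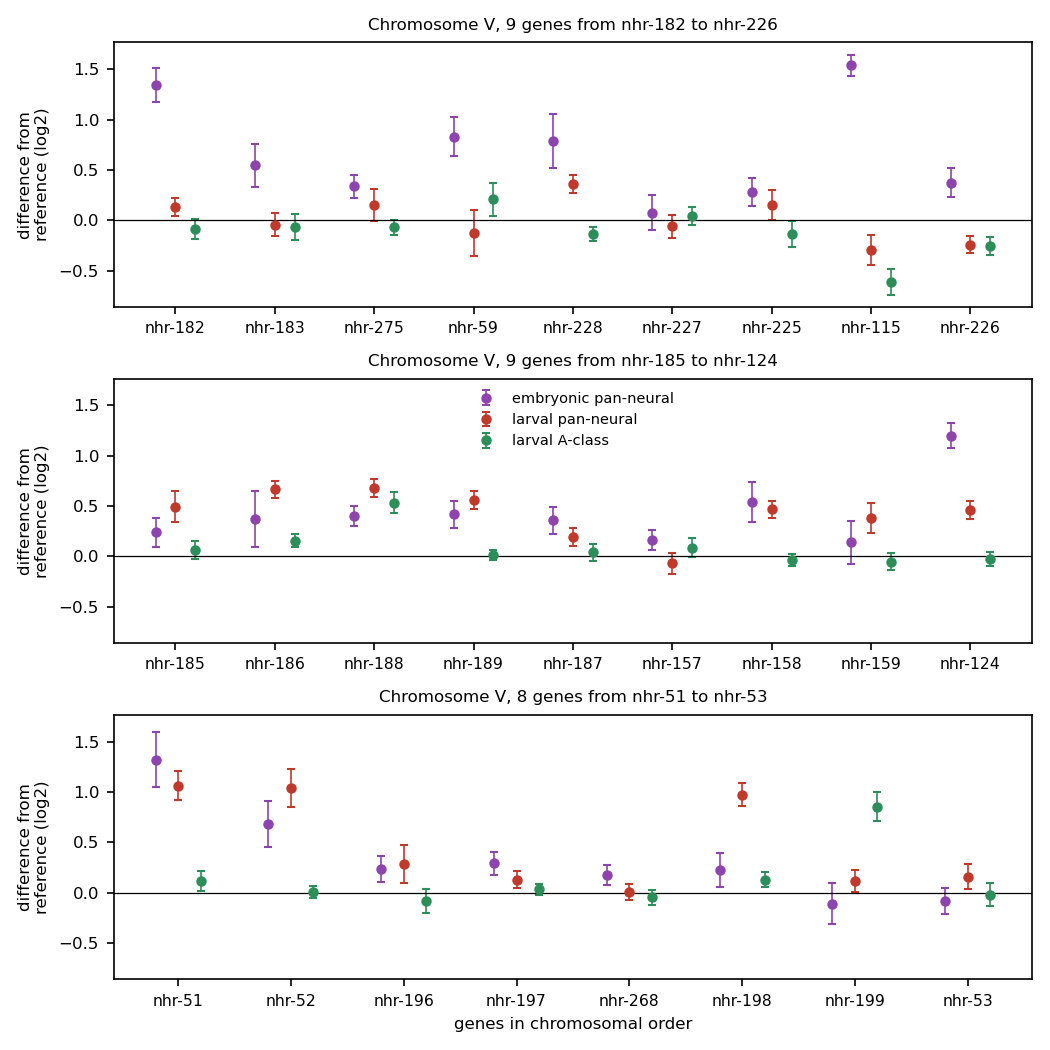
Difference from the reference (log2, y axis; bars are the SE) for the genes of 3 neighbour runs of chromosome V in chromosomal order, in embryonic neurons (purple), larval neurons (red) and the A-class sample (green). The embryonic points of the upper run lie above zero for all 9 genes with peaks at nhr-182 (1.34) and nhr-115 (1.54), and in the lower run the red points peak at nhr-51, nhr-52 and nhr-198 and the green ones at nhr-199 (0.85). In the upper run nhr-225, nhr-226 and nhr-227 were under the floor in both embryonic groups. In the middle run nhr-185, nhr-189 and nhr-157 were under the floor in the embryonic and the larval pan-neural groups.

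Several genes were measured more than once, with 30 genes on 2 probe sets and 3 genes on 4. Within such a gene the median gap between the highest and lowest difference was 0.38 in the embryonic set, 0.30 in the larval pan-neural set and 0.15 in the A-class set. The largest was 1.15, for nhr-25 in the embryonic set. Of the 6 genes called against a reference that had more than 1 probe set, nhr-11, nhr-23, nhr-25, nhr-40, nhr-47 and nhr-65, none had both called.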

How the data were processed

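The authors hybridized amplified, biotin-labelled RNA to the Affymetrix C. elegans array and deposited the intensity of 22625 probe sets, computed by robust multi-array analysis (RMA; version not given in the sources used here) separately for 3 sets of arrays, on a linear scale. Instrument records of each array, deposited beside them, hold no other unit of expression and gave day, lot and wash. Titles place larval references 1 to 3 in the embryonic set. Their values followed the larval pan-neural set (largest quantile gap 0.129 log2, against 0.574), as the series design states, and they were used there.

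Intensities were turned to log2, 77 control probe sets were left out, and limma 3.58.1 in R 4.3.3 was run on 22548 probe sets without a filter, with Benjamini-Hochberg adjustment over all of them. Gene names came from the platform annotation, with 887 probe sets of several names and 895 of none. The larval A-class and pan-neural values were compared after subtracting reference means, so the noise of the references does not enter that test. The labels call the replicates biological, without naming the cultures or worm populations they came from. No sequencing depth exists here, and the number of arrays limits precision. The code was tested on simulated data.

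The members, the lists of genes and the tests were chosen with earlier results of these data known. For each comparison with a reference the 10 called nhr genes with the largest change in each direction were to be named, and for each comparison of enrichments 6, plus the listed receptors. nhr-186, nhr-277, nhr-236 and nhr-216 in their comparisons, the near misses and genes of neighbour runs were named after their values were seen. The probe set with the highest mean stands for a listed gene. Alternatives were another variance model, a filter on low values, array centring, replicate number and hybridization day as blocks, arrays left out, other thresholds, shared probe sets left out and probe sets averaged by gene.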

Additional observations from a re-analysis of the deposited data

Results flagged for a closer look

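Single arrays stood apart from their group in 13 of 180 checks (7.22%) on 45 probe sets of named nhr genes in groups of 4 or 5 arrays, where chance alone flags about 1 in 20. The gap between the array named and the next one was a large part of the range of its group. In the embryonic reference, replicate 3 read low for nhr-66 (6.87), for nhr-13 (6.13) and for nhr-57 (7.65). Replicate 2 read low for nhr-85 (5.80) and for nhr-114 (4.41), replicate 4 read high for nhr-8 (5.48) and for nhr-68 (4.22), and replicate 1 read high for nhr-86 (6.99). Among the larval references, replicate 4 read low for nhr-66 in both normalizations of the same hybridization (8.02 in the pan-neural set and 7.94 in the A-class set). On the A-class arrays, replicate 4 read low for nhr-43 (5.39) and high for nhr-67 (6.82), and replicate 3 read high for nhr-2 (3.46, under the floor).

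The enrichment differed between embryonic and larval neurons for 8 nhr genes past the threshold of a test of the difference itself (limma, contrast of differences). The embryonic value was higher for nhr-115 (1.84), nhr-116 (1.62), nhr-215 (1.51, with all larval arrays of that set under the floor, so no larval enrichment could be measured), nhr-65 (1.29), nhr-182 (1.21) and nhr-124 (0.741), and lower for nhr-43 (-3.23) and nhr-11 (-1.59). Between the A-class sample and larval neurons it differed for 9 nhr genes. It was higher in the A-class sample for nhr-199 (0.738) and lower for nhr-167 (-1.49), nhr-21 (-1.21), nhr-51 (-0.945), nhr-198 (-0.845), nhr-88 (-0.736), nhr-47 (-0.724), nhr-236 (-0.634) and nhr-216 (-0.586, from values under the floor on all larval arrays).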

How the results depend on the processing

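No called result changed sign under the alternatives run. Most counts of called nhr probe sets rest on few arrays and on the threshold. In embryonic neurons (4 enriched, 4 depleted) a filter on low values gave 7 enriched, an adjusted p below 0.05 gave 19 and 11, averaging probe sets by gene left 1 depleted, day as a random block gave 2 and 1, and leaving out single arrays gave 1 to 8 enriched and 1 to 3 depleted. In larval neurons (12 and 0) an intensity trend with robust variance gave 1 depleted, an adjusted p below 0.05 gave 6 depleted, day as a fixed block and the shared day alone gave 0 enriched, and leaving out single arrays gave 7 to 12 enriched and 0 to 4 depleted. In the A-class sample (0 and 1) the trend gave 1 enriched, an adjusted p below 0.05 gave 1 and 2, probe sets unique to a gene gave 0 depleted, and leaving out single arrays gave 0 to 1 depleted. For embryonic against larval enrichment (6 and 2) an adjusted p below 0.05 gave 12 and 8, and single arrays left out gave 3 to 7 higher and 2 to 3 lower. For A-class against pan-neural enrichment (1 and 8) the low filter gave 0 higher, an adjusted p below 0.05 gave 3 higher, no fold threshold gave 14 lower, day as a random block gave 0 and 1, and single arrays left out gave 0 to 2 higher and 1 to 9 lower. Other counts stayed within 1.5 times. Levels under the floor in both groups limit what could be seen in 95 to 128 of the nhr probe sets.

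With the replicate number as a block the counts were 2 and 2 in embryonic neurons, 2 enriched in larval neurons, 0 depleted in the A-class sample, 2 and 1 for embryonic against larval enrichment and 0 and 0 for A-class against pan-neural enrichment. The labels do not say whether equal numbers pair the samples, and the deviations of the arrays do not decide it. In the embryonic set those of equal numbers correlated at 0.0493 to 0.333, all positive, and those of unequal numbers at -0.304 to 0.287. The larval pan-neural set gave -0.234 to 0.149 for equal and -0.18 to 0.218 for unequal numbers. The A-class set gave -0.425 to -0.0785 and -0.407 to 0.41.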

Other observations

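The 5 larval reference hybridizations were normalized once with the pan-neural arrays and once with the A-class arrays, so each gene has a pair of values for the same RNA. Over the nhr probe sets the value in the pan-neural set was higher by a median of 0.189 on the log2 scale, and over all probe sets by 0.16. The gap was over 0.5 for 15 nhr probe sets (5.12%) and for 547 of all probe sets (2.43%). It was largest for nhr-196, with means of 5.05 and 4.15, and nhr-236, one of the genes enriched in larval neurons, followed with 6.66 and 5.92.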
